A study of Homo sapiens with 2 samples.

Results

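The genes described here belong to the unfolded protein response and the integrated stress response, and 42 of them were chosen by name from the known pathways. Earlier results of these data were known when that choice was made. They were followed in AGS cells, an epithelial line from a human gastric adenocarcinoma, after galectin-3 silencing with small interfering RNA. The series holds 2 one-colour Affymetrix arrays, 1 of control cells and 1 of silenced cells, and how the control cells were treated, the time of harvest and the number of siRNAs used are not stated in the labels. Both groups are the same cell line, and with 1 array per group no difference below could be checked against replicates and none was tested. Of the 42 genes, out of 19775 named on the array, 41 had at least 1 probe set naming them alone and 37 gave a signal above background. All 37 were above background on both arrays, with background taken as the signal of olfactory receptor genes (138.4 for control cells and 109.5 for silenced cells). TRIB3, STC2, CBS and PHGDH were below it on both arrays, and the single SYVN1 probe set also carries the symbol of a microRNA gene and names neither.

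The endoplasmic reticulum (ER) folds secreted and membrane proteins, and unfolded protein there is sensed by IRE1 (encoded by ERN1), PERK (encoded by EIF2AK3) and ATF6. IRE1 splices the XBP1 transcript and ATF6 is cut to a nuclear factor, and both raise ER chaperones and the machinery that removes misfolded protein. PERK phosphorylates eIF2, which slows translation but favours ATF4, a factor that also answers to amino acid shortage and raises amino acid synthesis and uptake. The comparison of interest was therefore between 17 ER chaperone and degradation genes and 12 ATF4-type amino acid genes. In gastric epithelium, as in other secretory tissue, the ER arm is known for carrying the load of secreted proteins.

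Galectin-3 itself served as the check of the labels. Its transcript LGALS3 had a signal of 20206 in control cells and 2699.8 in silenced cells, which is 7.48-fold lower. Epithelial markers were present, with 6 of 7 above background on both arrays and 1 without a probe set of its own, and their summed signal was 92177 and 112461. Of 7 leukocyte markers 5 were below background on both arrays and CD68 had no probe set of its own, while LYZ, which gastric epithelium also makes, had 25668 and 27270. Of 6 fibroblast markers 5 were below background, COL1A1 being the exception with 816.3 and 1502, and of 4 endothelial markers 3 were below it, with PECAM1 at 127.4 and 121.

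Some promoters of these genes hold the short elements through which the response is known to act, and they are shown first for that reason. The ER stress response element, ERSE, consists of CCAAT, then 9 bases of any kind, then CCACG. ERSE-II consists of ATTGG, then 1 base of any kind, then CCACG. Both are bound by ATF6 and XBP1 together with NF-Y. The element bound by ATF4 with a C/EBP partner, called CARE, contains TGATGNAA. These letters were searched on both strands in the 250 bases before each RefSeq start site on GRCh38.p14, where 39 of the 42 genes had an entry. ERSE was found in 7 of them, against 0.0916% of all 27305 genes with an entry, ERSE-II in 3 against 0.0659%, and CARE, which is short, in 5 against 3.89%. Since the members were chosen as known genes of these responses, their higher shares are no independent result. HSPA5 is given over the whole 250 bases and the others as the stretch around the match, each in the direction of the gene with the match in capitals. Only exact letters were counted and put in capitals. Forms of an element that differ from these letters were therefore not marked, in HSPA5 as elsewhere. A match on the opposite strand appears as its reverse complement, and no match overlapped another.
HSPA5 (ERSE, chr9:125241344-125241593, minus strand): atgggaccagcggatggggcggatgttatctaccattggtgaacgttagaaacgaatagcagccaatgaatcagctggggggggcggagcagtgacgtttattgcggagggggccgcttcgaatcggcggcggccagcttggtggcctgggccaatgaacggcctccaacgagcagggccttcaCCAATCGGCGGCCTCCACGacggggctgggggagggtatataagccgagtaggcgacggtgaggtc
HSP90B1 (ERSE, chr12:103930201-103930354, plus strand): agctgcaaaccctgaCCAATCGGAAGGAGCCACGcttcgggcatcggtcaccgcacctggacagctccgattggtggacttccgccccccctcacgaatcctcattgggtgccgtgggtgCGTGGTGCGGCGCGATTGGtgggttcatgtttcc
PDIA6 (ERSE, chr2:10812838-10812886, minus strand): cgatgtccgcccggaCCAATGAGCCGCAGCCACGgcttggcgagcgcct
CALR (ERSE, chr19:12938369-12938417, plus strand): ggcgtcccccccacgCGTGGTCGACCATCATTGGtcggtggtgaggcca
CRELD2 (ERSE, chr22:49918539-49918587, plus strand): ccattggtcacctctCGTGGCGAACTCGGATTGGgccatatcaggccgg
XBP1 (ERSE, chr22:28800588-28800636, minus strand): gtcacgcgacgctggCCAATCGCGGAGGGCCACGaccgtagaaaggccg
SDF2L1 (ERSE-II, chr22:21642099-21642139, plus strand): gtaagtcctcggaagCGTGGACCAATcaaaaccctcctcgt
HYOU1 (ERSE-II, chr11:119057259-119057405, minus strand): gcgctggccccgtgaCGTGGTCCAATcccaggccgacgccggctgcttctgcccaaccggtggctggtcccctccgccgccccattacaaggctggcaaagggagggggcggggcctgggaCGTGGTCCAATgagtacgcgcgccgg
HERPUD1 (CARE, then ERSE-II, chr16:56931951-56932050, plus strand): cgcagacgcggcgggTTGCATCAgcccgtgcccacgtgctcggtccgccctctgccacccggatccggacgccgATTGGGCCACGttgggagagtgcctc
ASNS (CARE, chr7:97872454-97872491, minus strand): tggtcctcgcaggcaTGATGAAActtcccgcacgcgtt
CHAC1 (CARE, chr15:40953247-40953284, plus strand): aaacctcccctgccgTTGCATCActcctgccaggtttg
ATF3 (CARE, chr1:212565201-212565238, plus strand): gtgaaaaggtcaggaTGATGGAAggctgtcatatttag
CANX (ERSE) and CEBPG (CARE) also held a match and are not printed. PDIA6, CANX, CEBPG, ATF3, ASNS, XBP1 and other members have several start sites, and a gene was counted if any of its windows held the letters.

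Few genes of the response differed by much between the arrays. Below, signals are given for the control array first and the silenced array second, and the ratio is log2 of silenced over control, so a negative ratio means a lower signal after silencing. By the rule of size, 0 of the 37 measured genes were at least 2-fold higher, beside 3.31% of all 10514 genes measured, and 1 was at least 2-fold lower, beside 3.07%. At 1.5-fold, 3 were higher (10.6% of all genes) and 2 lower (10.4%), and the other 32 lay in between. These are 8.11% and 5.41% of the measured members, no more than the share of the whole array. The ratios were under 0 in 24 of the 37 genes, or 64.9%, beside 48.0% of all genes, and their median was -0.20 beside -0.02 for all genes. Without _s_at and _x_at probe sets, which leaves 29 members, it was -0.08, or 0.05 under the median of all genes in place of 0.19. In such bulk RNA, fewer cells in a given state and less RNA per cell cannot be told apart. For scale, probe sets of the same gene differed among themselves by an SD of 0.32 in this ratio over 4728 genes. That SD comes from the same RNA and says nothing of repeat cultures. Of the 37 members, 8 lay further than that below 0 (21.6%, beside 22.6% of all genes) and 4 further above it (10.8%, beside 22.9%).

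**Figure D1:**
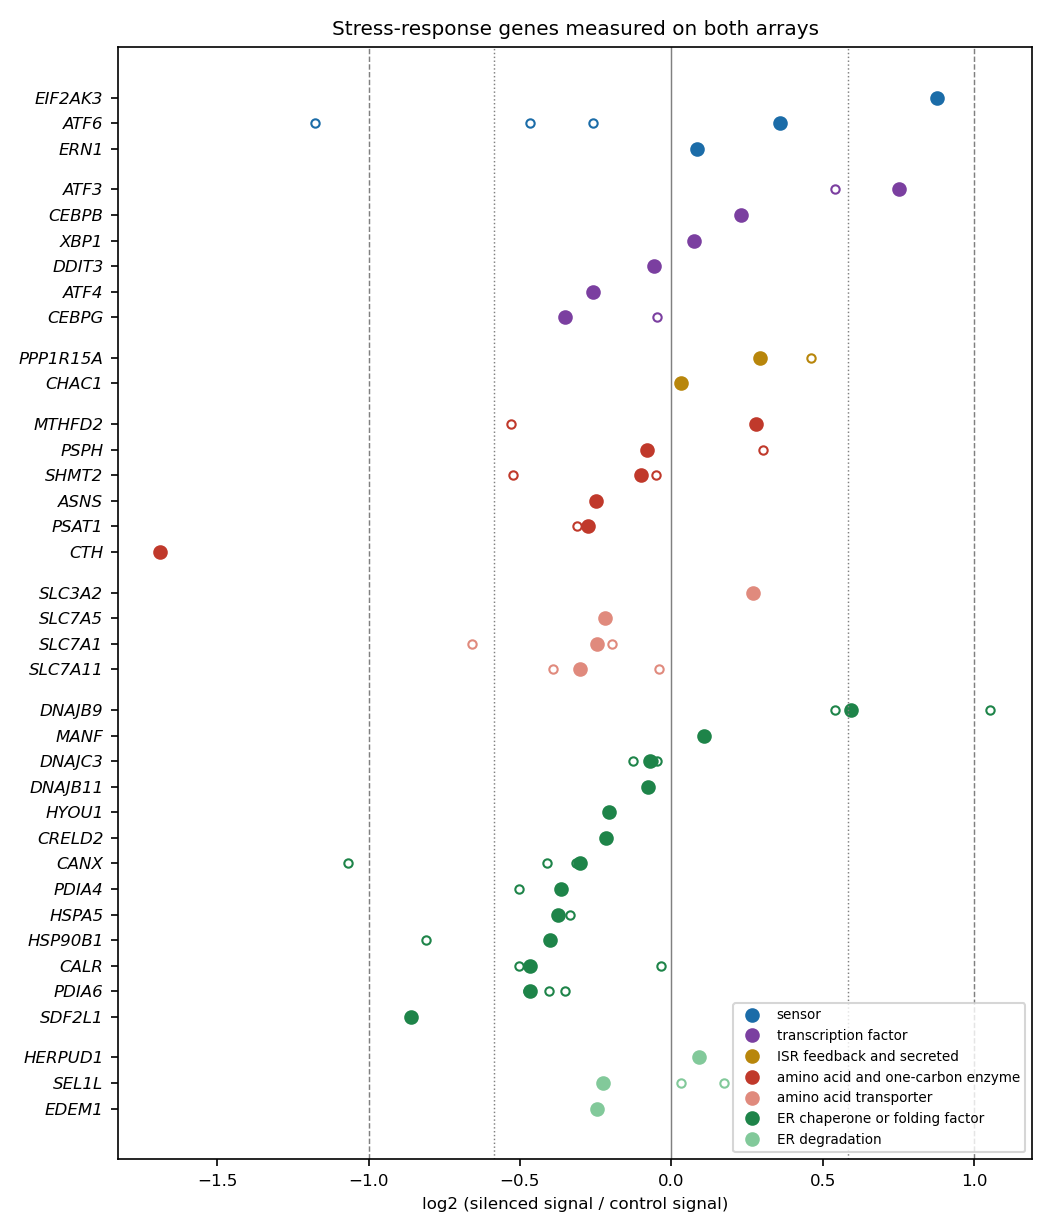
Ratio of silenced over control signal (log2, horizontal axis) for each of the 37 measured genes, grouped by role; filled points are the probe set that stands for the gene, open points its other probe sets above background on both arrays. Dotted lines mark 1.5-fold and dashed lines 2-fold; only CTH lies beyond 2-fold on its filled point, and most green points of the chaperones lie left of 0.

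The sensors stood above 0 on the probe sets that represent them, most clearly PERK. EIF2AK3, which encodes PERK, had signals of 1105.4 and 2031, a ratio of 0.88 or 1.84-fold, the highest of all members. Its second probe set was below background on both arrays, so the difference rests on 1 probe set. ATF6 had 949.2 and 1217 on its strongest probe set, a ratio of 0.36. The other probe sets of ATF6 went the opposite way: 580.7 and 256.8 (ratio -1.18), 318.3 and 230.1 (-0.47), and 152.1 and 127 (-0.26). The 4 ATF6 probe sets therefore disagree on direction, and with their median the gene had a ratio of -0.36. ERN1, which encodes IRE1, was barely above background at 210.0 and 222.7, a ratio of 0.08. That small ratio turned negative after scaling to the poly-A controls and also with a floor 2 times higher. A further ERN1 probe set read 113.6, below background, and 244 in silenced cells, a bound of at least 0.82.

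The transcription factors did not move as a set. ATF4, the central factor of the integrated stress response, had signals of 9986.5 and 8349, a ratio of -0.26. ATF3, a factor induced by ATF4 and by many other stresses, had 666.4 and 1123, a ratio of 0.75 or 1.68-fold. A second ATF3 probe set agreed in direction, with 226 and 328.5 (0.54), while another was below background. DDIT3, the pro-apoptotic factor CHOP and a classical readout of PERK signalling, differed little, with 456.7 and 438.8 (-0.06). XBP1, the substrate of IRE1, had 3532 and 3724 (0.08), and the array does not separate its spliced from its unspliced form. Both of these small ratios changed sign under 1 scaling of the arrays, DDIT3 with the hybridization controls set equal and XBP1 with the poly-A controls set equal. The C/EBP partners of ATF4 lay on opposite sides of 0. CEBPB had 3403 and 3991 (0.23, or just under 0 with the poly-A controls set equal), and CEBPG had 2361 and 1853 (-0.35), with a second CEBPG probe set at -0.05. Of these 6 factors ATF3 passed 1.5-fold, and it no longer did with the poly-A controls set equal (0.52) or without _s_at and _x_at probe sets (0.54).

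Of the feedback and secreted genes, 2 of 4 could be measured. PPP1R15A, the GADD34 subunit that brings a phosphatase to eIF2 and so ends the response, had 855.3 and 1049 on one probe set (0.29) and 736.7 and 1014 on another (0.46). Both probe sets were higher on the silenced array, though short of 1.5-fold. CHAC1, a glutathione-degrading enzyme strongly induced by ATF4, was barely above background at 200.1 and 204.5 (0.03). That small ratio turned negative with the poly-A controls set equal, and with a floor 2 times higher CHAC1 was not measured. TRIB3, a pseudokinase that restrains ATF4 and CHOP, had 34.1 and 77 on its strongest probe set, below background on both arrays. STC2, the secreted stanniocalcin-2, had 52.8 and 48, also below background.

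Among the amino acid and one-carbon enzymes, 5 of 6 measured genes had a ratio under 0 (83.3%, beside 48.0% of all genes), but only CTH by much. CTH, the cystathionine gamma-lyase that makes cysteine from cystathionine, had 371.1 and 115, a ratio of -1.69 or 3.23-fold lower. The silenced signal stood just above the background of 109.5, so the size of this ratio depends on that background. With a floor 2 times higher the ratio became a bound of at least 0.76 in the same direction, which is short of 2-fold. The other CTH probe set, at 125.5 and 102.7, was below background on both arrays. ASNS, the asparagine synthetase, had 1378 and 1160 by its only measured probe set (-0.25). PSAT1, a transaminase of serine synthesis, had 6693 and 5533.5 (-0.27), and its second probe set gave -0.31.

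The remaining enzymes were closer to 0 or split between probe sets. PSPH, which completes serine synthesis, read 2616 and 2474 on one probe set (-0.08) and 983 and 1212 on another (0.30), so it has no settled direction. SHMT2, the mitochondrial serine hydroxymethyltransferase, gave -0.10, -0.05 and -0.52 on 3 probe sets, and the first of these turned positive with the hybridization controls set equal. MTHFD2, the mitochondrial folate enzyme next in that route, had 8157 and 9899 (0.28), the one enzyme with a ratio above 0. Its weaker probe set, of a kind that can cross-hybridise, gave -0.53. PHGDH, the first enzyme of serine synthesis, and CBS, which makes the cystathionine that CTH uses, were below background. For PHGDH that holds for its 1 single-gene probe set (57.6 and 39.7), since another probe set is shared with MZT2A and MZT2B and names none of them.

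The amino acid transporters differed little. SLC7A11, the cystine importer xCT, had 558.1 and 452.4 (-0.30), with -0.39 and -0.04 on its other probe sets. SLC7A5, the large neutral amino acid carrier LAT1, had 2622 and 2252 (-0.22). SLC3A2, the heavy chain that both of these carriers need at the membrane, went the other way with 1979 and 2383 (0.27). The heavy chain and its light chains thus lay on opposite sides of 0. SLC7A1, a cationic amino acid transporter, had 3102 and 2615 (-0.25), with -0.20 and -0.66 on weaker probe sets.

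Most ER chaperones and folding factors had a ratio under 0. Of 13 genes, all measured, 11 had a ratio under 0 (84.6%, beside 48.0% of all genes), and the median was -0.30. Of the 13, 6 lay below 0 by more than the probe set SD of 0.32 (46.2%, beside 22.6% of all genes). HSPA5, the central ER chaperone BiP that also holds the sensors inactive, had 27756 and 21397, a ratio of -0.38, and a second weaker probe set gave -0.33. HSP90B1, the ER form of HSP90 known as GRP94, had 11366 and 8602 (-0.40) and 1115 and 635.3 (-0.81) on its 2 single-gene probe sets. Both of these are of the kind that can cross-hybridise, and probe sets that also carry a microRNA symbol were not used. SDF2L1, a partner of BiP and its J-proteins in the ER, was the lowest of the group with 3067 and 1688, a ratio of -0.86 or 1.82-fold lower. It has a single probe set, so nothing on the array repeats it.

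The disulfide isomerases and lectin chaperones also had ratios under 0. PDIA6 had 15107 and 10935 (-0.47), and its 4 probe sets gave ratios from -0.47 to -0.35. PDIA4 had 7445 and 5782 (-0.36), with -0.50 on its second probe set. Both isomerases were therefore lower on every probe set measured. CALR, the lectin chaperone calreticulin, had 1832 and 1326 (-0.47), with -0.50 and -0.04 on 2 cross-hybridising probe sets. CANX, its membrane-bound relative calnexin, had 14757 and 11979 (-0.30), with -0.31, -0.41 and -1.07 on others. The last of these is a weak probe set (516.9 and 246.3), and calnexin passed 2-fold only when probe sets of the _s_at and _x_at kinds were left out.

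Smaller differences were seen in the co-chaperones and secreted factors. HYOU1, the ER chaperone GRP170 that exchanges the nucleotide of BiP, had 4829 and 4191 (-0.20). CRELD2, an ER stress-induced secreted protein, had 5317 and 4578 (-0.22). DNAJB11 had 6987 and 6628 (-0.08). DNAJB11 is a J-protein that brings unfolded clients to BiP, and its ratio changed sign with the hybridization controls set equal. DNAJC3, known as p58IPK, which inhibits PERK, had 3150 and 2999 (-0.07), and its 4 probe sets stayed within -0.13 and -0.05, although the sign turned with those same controls. These last 2 genes sat close to the middle of all genes on the array.

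DNAJB9 and MANF were the exceptions among the chaperone group. DNAJB9, the J-protein ERdj4 that is a known target of spliced XBP1 and that returns BiP to IRE1, had 1094 and 1653, a ratio of 0.59 or 1.51-fold higher. Its other probe sets gave 856.8 and 1245 (0.54) and 158.4 and 328.9 (1.05). DNAJB9 sat at the 1.5-fold line and fell short of it with the poly-A controls set equal (0.36), with log2 of signal plus 50 (0.57) and without _s_at and _x_at probe sets (0.54). DNAJB9 was therefore higher on all 3 probe sets while BiP was lower on both of its own. MANF, a secreted protein that binds BiP, had 6742 and 7265 (0.11), which turned negative with the poly-A controls set equal.

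**Figure D2:**
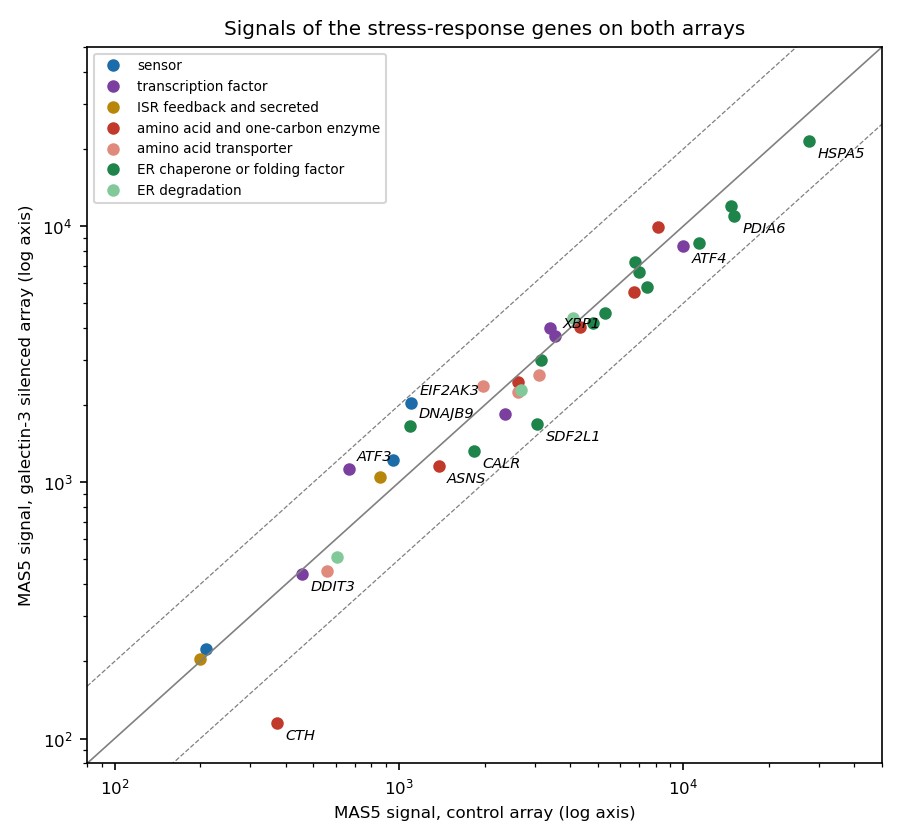
MAS5 signal on the control array (horizontal, log axis) against the silenced array (vertical, log axis) for the 37 measured genes, coloured by role, with the line of equal signal and dashed lines at 2-fold. EIF2AK3, DNAJB9 and ATF3 lie above the line of equal signal, SDF2L1, CALR, PDIA6 and HSPA5 below it, and CTH lies beyond the lower 2-fold line.

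Of the genes of ER-associated degradation 3 were measured, and 2 had a ratio under 0 (66.7%, beside 48.0% of all genes). EDEM1, a lectin that marks misfolded glycoproteins for removal, had 606.4 and 511.4 (-0.25). SEL1L, the scaffold of the ubiquitin ligase complex, had 2679 and 2291 (-0.23) on its strongest probe set but 0.03 and 0.17 on others. HERPUD1, a membrane component of that complex that ER stress strongly induces, had 4092 and 4363 (0.09). The HERPUD1 ratio turned negative with the poly-A controls set equal, and without _s_at probe sets only a bound with no direction was left. None of these genes passed 1.5-fold.

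Set side by side, the arms had nearly the same median. The 16 measured ER chaperone and degradation genes had a median ratio of -0.24 and the 10 measured ATF4-type amino acid genes one of -0.23, both about 0.22 below the median of all genes. In the ER arm 13 of 16 ratios were under 0, and in the amino acid arm 8 of 10. The arms differed in their extremes. The ER arm ran from -0.86 for SDF2L1 to 0.59 for DNAJB9, and the amino acid arm from -1.69 for CTH to 0.28 for MTHFD2. Beyond the probe set SD of 0.32, 6 ER genes were lower and 1 higher, and of the amino acid genes CTH was lower and 0 were higher. These are 37.5% and 6.25% of the ER arm and 10.0% and 0% of the amino acid arm, beside 22.6% and 22.9% of all genes. The medians depended on how the arrays were scaled: they were -0.06 and -0.05 with the hybridization controls set equal and -0.47 for both with the poly-A controls set equal. Those scalings moved the median of all genes to 0.17 and -0.25, and since they shift every gene alike, they leave the distance of the arms from it as it was.

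**Figure D3:**
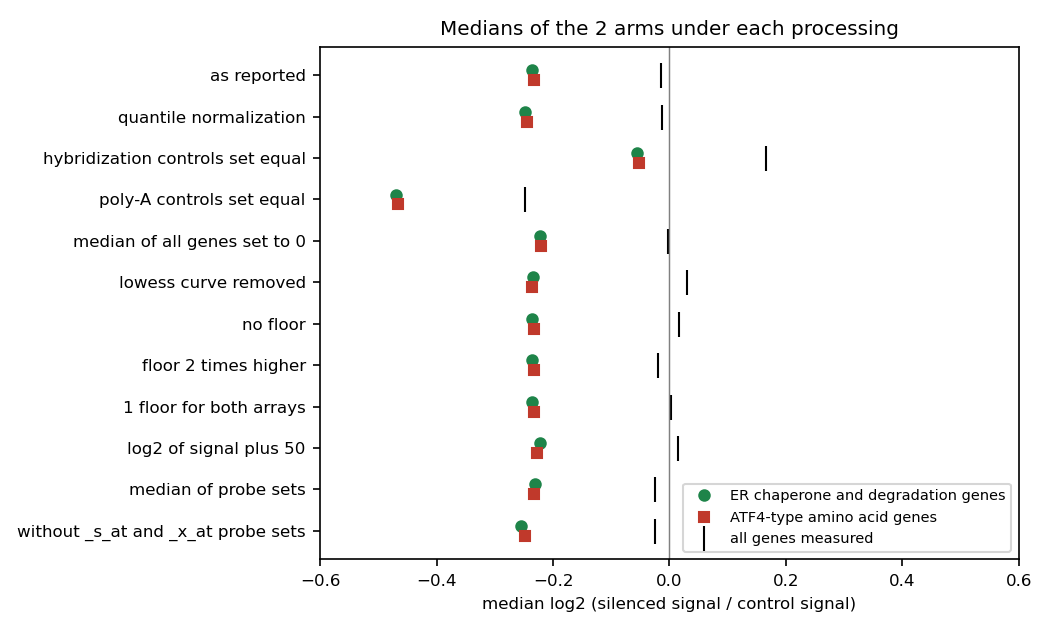
Median ratio (log2, horizontal axis) of the ER chaperone and degradation genes (circles), the ATF4-type amino acid genes (squares) and all genes measured (vertical ticks) as reported and under 11 other ways of processing. Circles and squares nearly coincide in every line and lie left of the tick for all genes.

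The ratios of the ER arm were also read by the promoter letters shown above. The 6 ER genes with an ERSE match, HSPA5, HSP90B1, PDIA6, CALR, CANX and CRELD2, all had ratios under 0, from -0.47 to -0.22, with a median of -0.39. With ERSE-II added, 9 ER genes held either form, 8 with a ratio under 0 and HERPUD1 with 0.09, and their median was -0.38. The 8 ER genes in which neither form was found, of which 7 were measured, had 5 ratios under 0 and a median of -0.08. A gene without an entry would be counted among these 8. So would a gene whose element differs from the exact letters or lies outside the 250 bases searched. The difference between the medians was not tested. Of all genes measured, 48.0% had a ratio under 0. DNAJB9 and MANF, which lay above 0, were among those without a match, as was PDIA4 at -0.36. XBP1, outside the ER arm, held an ERSE and had a ratio of 0.08. The 5 genes with CARE letters, ATF3, ASNS, CHAC1, CEBPG and HERPUD1, showed no common direction, with ratios from -0.35 to 0.75. A match describes letters in a window and was not tested as a site of binding in these cells.

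Outside the 42 genes, 113 others of the same pathways were listed, and 94 of them were measured. At 2-fold, 4 were higher and 1 lower, and at 1.5-fold 7 were higher and 8 lower, which is 7.45% and 8.51% of those measured. The 2-fold shares are 4.26% and 1.06%, beside 3.31% and 3.07% of all genes, and the 1.5-fold shares stand beside 10.6% and 10.4%. Their median ratio was 0.01, beside -0.30 for the 13 ER chaperones and folding factors, a difference that was not tested. Among 47 other genes of ER folding, secretion and degradation the median was 0.02, with 21 ratios under 0 and 25 above it. SIL1, a nucleotide exchange factor of BiP, was 2.41-fold higher, with 598.1 and 1441 on 1 probe set. FKBP14, a collagen-folding prolyl isomerase of the ER, was 2.44-fold higher, with 352.9 and 860.0. Another FKBP14 probe set gave a ratio of 2.24, but its control signal of 148.1 stood just above the background of 138.4. A further one read 80.4, below background, and 218.6, a bound of at least 0.66. Both factors thus lay on the other side of 0 from BiP. SPCS1, a subunit of the signal peptidase that trims secreted proteins, was 3.14-fold lower, with 11934 and 3798, and this rests on 1 probe set. SPCS2 (0.08) and SPCS3 (0.07) of the same complex, looked up after that value was seen, differed little. SSR1, of the translocon-associated complex, was 1.72-fold lower on its strongest probe set, and 5 probe sets ranged from -0.92 to 0.41.

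Among 14 measured genes of ER stress signalling, 2 were at least 1.5-fold higher and 2 lower. That is 14.3% each way, beside 10.6% and 10.4% of all genes. MBTPS2, the site-2 protease that releases active ATF6, was 1.98-fold lower, with 1967 and 992.1, and a weaker probe set gave -0.39. MBTPS1, the site-1 protease that makes the first cut, had a ratio of 0.15. MBTPS1 and the eIF2 kinases below are given as partners of named genes, and were added after their values were seen. CREB3, a membrane-bound factor cut by these proteases, was 1.86-fold higher, with 1060 and 1968 on 1 probe set. MAP3K5, the stress kinase ASK1 that acts downstream of IRE1, was 1.86-fold lower, with 1394 and 748, and its other probe set gave the same ratio of -0.90.

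The eIF2 kinases other than PERK stayed under 1.5-fold. EIF2AK2, the double-stranded RNA kinase PKR that interferon induces, had 1357 and 1697 (0.32). EIF2AK4, the amino acid sensor GCN2, had 1788 and 2291 (0.36), and EIF2AK1, the heme-regulated kinase, 5789.5 and 5821 (0.01). Of 15 genes for eIF2 kinases, phosphatases and the exchange factor eIF2B, only the eIF2B subunit EIF2B1 passed 1.5-fold. It was lower, which makes 6.67% of these genes, beside 10.4% of all genes. EIF2B1 had a ratio of -0.78 on 1 probe set, and it was named after its value was seen.

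Further targets of the integrated stress response were split. SLC38A2, a neutral amino acid transporter induced by amino acid shortage, was 2.15-fold higher, with 4350 and 9367, and its other probe sets gave 0.82 and 0.95. KLHL24, a ubiquitin ligase adaptor, was 2.79-fold higher by 308.4 and 859.5, but its other probe sets ranged from 0.07 to 1.80. GADD45A, a stress-induced growth arrest gene, was 1.94-fold higher, with 1759 and 3411 on 1 probe set. In the other direction ATF5, a factor related to ATF4, was 1.84-fold lower, with 680.3 and 369.4. A weaker ATF5 probe set went the opposite way, with 81.2, below background, and 143.2, a bound of at least 0.05. PYCR1, an enzyme of proline synthesis, was 1.77-fold lower, with 1401.5 and 793.9 on 1 probe set. Of 30 such genes 18 were measured, and their median was -0.11.

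**Figure D4:**
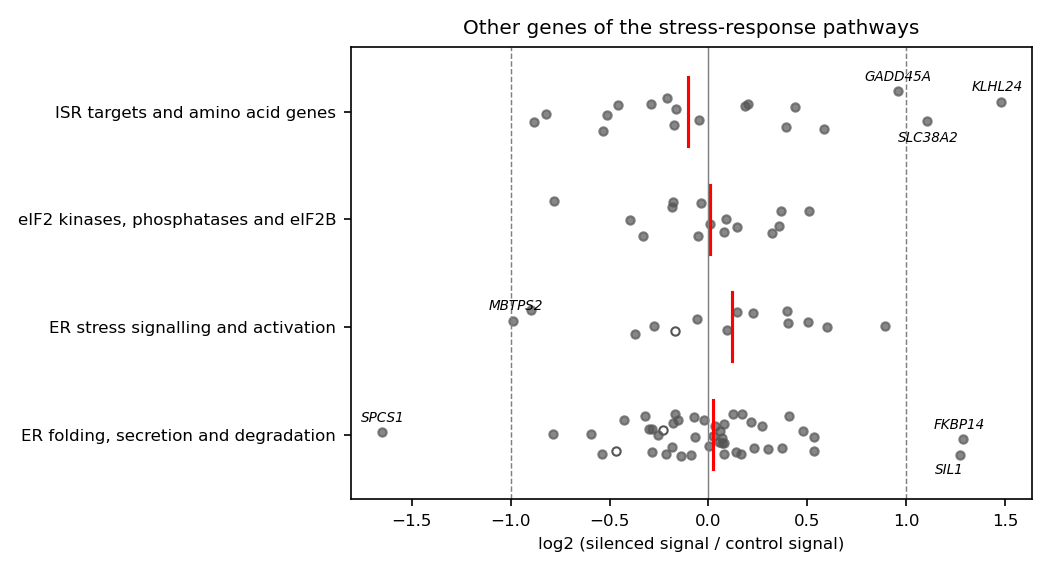
Ratio of silenced over control signal (log2, horizontal axis) for the 94 measured genes of the pathways outside the 42, in 4 groups; points are genes, open points are bounds with 1 signal below background, red lines are group medians and dashed lines mark 2-fold. SPCS1 lies far to the left, and KLHL24, FKBP14, SIL1 and SLC38A2 lie to the right of the upper 2-fold line.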

How the data were processed

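Total RNA of AGS cells was labelled with biotin and hybridised to one-colour arrays, per the labels' protocols. The authors deposited linear intensity values, summarised with MAS5 according to the submitters' processing notes, and neither its version nor the scaling target is stated there. Both arrays had a trimmed mean of 500.07 and were used as deposited, so a change in the total RNA of a cell would not be seen. MAS5 treats each array alone, and weak signals are noisy.

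Probe sets were named from the platform annotation, and those with several symbols named no gene. The floor was the 95th percentile of 135 olfactory receptor probe sets on each array, and lower signals were raised to it. Each gene was represented by its brightest probe set (mean of both arrays on the log2 scale), and _x_at probe sets were used only where no other existed. Genes were called by size, at 2-fold and 1.5-fold. The procedure was tested on simulated data, and 11 alternatives of scaling, floor, pseudocount and probe set were tried. Precision is limited by there being 1 array per group. Python 3.11.15, pandas 2.3.3 and statsmodels 0.14.6 were used. All 42 genes are named, with LGALS3 and, from the wider list, at most 6 genes in each direction past 1.5-fold, to which EIF2B1 and partners of named genes were added after their values were seen. The members and lists were chosen with earlier results of these data known.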

Additional observations from a re-analysis of the deposited data

How the results depend on the processing

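Across 11 alternatives, 390 of 398 single-gene values stayed within the probe set SD of 0.32 of the reported value and 8 moved further. That count was largely fixed in advance. The scalings to controls and the centring shift every gene by the same amount, which is less than 0.32. The changes of floor leave genes well above background as they were. Of the 37 genes, 24 kept their sign under every alternative in which they had a value, 18 of them lower and 6 higher. Among these 24, ASNS, PSAT1, SLC3A2, SLC7A5, HSP90B1, SDF2L1 and HYOU1 had no value without _s_at and _x_at probe sets. The difference between the arm medians was -0.003 and became 0.001 with the lowess curve removed, 0.004 with log2 of signal plus 50, and 0.002 with the median of probe sets, so it has no direction. Members at least 2-fold higher numbered 1 with the hybridization controls set equal (EIF2AK3). Those at least 2-fold lower numbered 2 with the poly-A controls set equal, 2 without _s_at and _x_at probe sets, and 0 with a floor 2 times higher. Members at least 1.5-fold higher numbered 1 after scaling to the poly-A controls and 1 without _s_at and _x_at probe sets, and those 1.5-fold lower numbered 7 with the poly-A controls. Other genes of the pathways at least 2-fold lower numbered 7 with the poly-A controls, 2 with the median of probe sets and 4 without _s_at and _x_at probe sets. At 1.5-fold, 15 were higher with the hybridization controls, 4 were higher without _s_at and _x_at probe sets, and 16 were lower with the poly-A controls. No paired analysis was possible because each group has 1 array, and for the same reason no array could be left out.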
